A study of Mus musculus with 19 samples.

Results

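The genes described here encode the mouse proteasome and its helpers. They were taken from the deposited count table as every row whose name starts with Psma to Psmg followed by a number, leaving out pseudogene names, with at least 50 counts summed over the 19 libraries. The rule gave 47 of the 49585 genes in the table. Of 50 candidate names, Psmb11, the catalytic subunit of the thymus form (4 counts), Psma8, the alpha subunit of the testis form (40 counts), and Psme2b (0 counts) did not reach the minimum. All 47 members also passed the filter on low counts used in the tests. Psmc3ip matched the rule by name but encodes a meiotic recombination factor and is not a proteasome subunit, so it is listed apart.

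The study asked how a partial lack of hyaluronan synthase 2 alters the lung after long allergen exposure. Female Balb/c mice, 6 to 8 weeks old, were wild type (WT) or heterozygous for a germline Has2 deletion that had been backcrossed to Balb/c (Has2+/-). The OVA groups were sensitized to ovalbumin and then received it intranasally on 5 days a week for 8 weeks, and the saline groups received saline. RNA came from whole lung, taken 24 h after the last OVA challenge by the study methods. The libraries numbered 5 for each WT group and for Has2+/- OVA, and 4 for Has2+/- saline. Library numbers 1 to 19 follow the count table, since its columns gave the group of each library but not the animal. The study text calls the WT mice littermates of the Has2+/- mice but does not tie a library to a litter, so p-values measure the spread between these libraries. Total counts ran from 4446534 to 7048676, and no 2 libraries were identical. Has2 itself was too low to check the genotype labels, with 1 to 4 counts in WT-saline, 2 to 7 in Has2+/- saline, 2 to 10 in WT-OVA and 3 to 9 in Has2+/- OVA libraries. The alveolar type 2 cell genes that mark lung summed to between 11112 and 17021 CPM in every library.

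The proteasome degrades proteins tagged with ubiquitin. Its 20S core is a barrel of outer alpha rings and inner beta rings, with the peptide-cutting sites in the beta subunits Psmb5, Psmb6 and Psmb7, and its 19S cap holds ATPases that unfold the substrate and non-ATPases that bind and trim ubiquitin. Interferon-gamma is known to induce the immunoproteasome, in which Psmb8, Psmb9 and Psmb10 take the places of Psmb5, Psmb6 and Psmb7, together with the activator PA28 alpha and beta (Psme1 and Psme2), and this form favours the cutting of peptides for MHC class I. Cells of the immune system carry much immunoproteasome without induction, while most lung parenchymal cells are expected to carry mainly the standard form.

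Promoters of 3 inducible genes and of a standard catalytic subunit are shown as a description of their sequence. The changes of the inducible members on OVA, given below, were not tested against each other, and no link to these sequences was tested. Each is the RefSeq window of 250 bases before to 50 bases after the annotated start in GRCm38.p6, written along the gene's strand. Capitals mark a motif match found on either strand. In Psmb8 this is the GAS letters TTCNNNGAA, the interferon-gamma activated sequence, at bases 154 to 162 of the window. In Psmb9 it is the CCAAT box, read from the other strand, in Psme1 the core of the interferon-stimulated response element (GAAA, any 2 bases, GAAA, here read from the other strand), and in Psmb5 the antioxidant response element, TGACNNNGC. The windows lie at chr17:34197945-34198244 (plus strand) for Psmb8, chr17:34187281-34187580 (minus) for Psmb9, chr14:55578244-55578543 (plus) for Psme1 and chr14:54617946-54618245 (minus) for Psmb5. Those of Psmb8, Psmb9 and Psme1 lie wholly inside the span of the gene in the GENCODE M21 annotation, whose start is further upstream. Their matches are thus not upstream of every annotated start.
Psmb8: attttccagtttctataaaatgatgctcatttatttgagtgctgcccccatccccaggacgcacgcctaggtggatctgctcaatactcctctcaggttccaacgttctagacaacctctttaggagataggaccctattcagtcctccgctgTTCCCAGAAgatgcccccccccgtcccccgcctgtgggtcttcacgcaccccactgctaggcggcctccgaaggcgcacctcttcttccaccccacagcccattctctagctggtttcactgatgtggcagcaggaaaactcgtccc
Psmb9: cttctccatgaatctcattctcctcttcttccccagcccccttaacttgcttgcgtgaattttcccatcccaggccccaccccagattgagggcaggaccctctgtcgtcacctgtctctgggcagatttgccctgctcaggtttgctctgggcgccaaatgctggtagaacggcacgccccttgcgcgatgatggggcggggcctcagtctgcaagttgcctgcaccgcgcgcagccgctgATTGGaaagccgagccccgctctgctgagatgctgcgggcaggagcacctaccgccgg
Psme1: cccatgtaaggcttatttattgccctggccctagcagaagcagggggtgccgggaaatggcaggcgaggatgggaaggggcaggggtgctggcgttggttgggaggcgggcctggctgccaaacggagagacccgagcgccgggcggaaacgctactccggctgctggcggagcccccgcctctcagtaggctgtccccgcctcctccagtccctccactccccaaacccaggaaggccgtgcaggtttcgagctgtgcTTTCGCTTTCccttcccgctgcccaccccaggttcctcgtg
Psmb5: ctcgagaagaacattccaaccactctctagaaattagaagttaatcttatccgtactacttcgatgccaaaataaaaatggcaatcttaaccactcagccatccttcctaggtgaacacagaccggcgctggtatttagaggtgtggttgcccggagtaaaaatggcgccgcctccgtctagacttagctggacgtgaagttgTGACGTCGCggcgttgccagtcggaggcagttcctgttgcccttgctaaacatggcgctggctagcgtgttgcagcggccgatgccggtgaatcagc

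Of the 47 members, 40 had a RefSeq window. GAS was in 3 of these 40 (Psmb8, Psmd2 and Psmg1), against 8.30% of 32851 windows of all genes. The response element core was in 5 (Psmb3, Psmd4, Psmd9, Psme1 and Psmg4), against 3.44%, the antioxidant element in 6 (Psmb5, Psmb6, Psmc6, Psmd9, Psmd12 and Psme4), against 12.4%, and the CCAAT box in 14, against 37.4%. The Psmb9 window shares 275 bases with that of Tap1, the peptide transporter gene read from the opposite strand. A match is a description of these letters only, and a window without one says nothing of a factor.

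The levels of the members were first set side by side per exon length in WT-saline lung, as TMM-scaled CPM, the counts relative to library size, divided by kilobases of exon in GENCODE M21. Psme1 was the highest at 84.6 ± 11.7 CPM per kilobase (SD, n = 5), followed by the catalytic Psmb6 at 67.3 ± 2.49, the structural beta subunit Psmb4 at 63.7 ± 4.90 and the alpha subunit Psma7 at 59.8 ± 4.08. Psmb6, Psmb4 and Psma7 each lay within 1 SD of the next, while Psme1 stood above them. Among the inducible catalytic subunits the level per kilobase was 25.5 ± 8.02 for Psmb8, 28.5 ± 7.98 for Psmb9 and 22.4 ± 4.18 for Psmb10, and among their standard counterparts 18.9 ± 2.07 for Psmb5, 67.3 ± 2.49 for Psmb6 and 34.4 ± 1.39 for Psmb7. Psmb8 and Psmb5 thus overlapped in spread, while Psmb9 and Psmb10 lay below their counterparts on this scale. The 6 ATPases of the cap ran from 19.1 (Psmc6) to 42.4 (Psmc1) and the 11 non-ATPases from 13.4 (Psmd12) to 45.3 (Psmd3). Assembly chaperones, which leave the finished particle, were low, from 3.54 (Psmg3) to 11.3 (Psmg4), as was the inhibitor gene Psmf1 at 9.04.

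**Figure D1:**
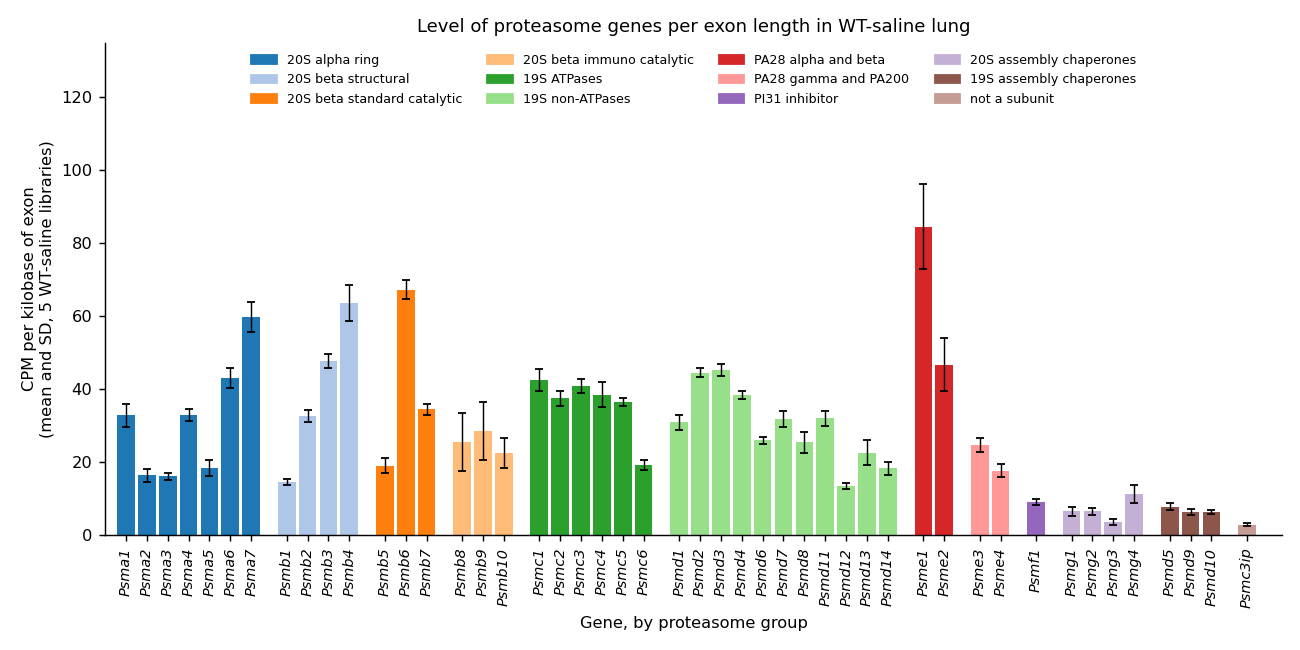
Bars give the mean level of each of the 47 genes in the 5 WT-saline libraries in CPM per kilobase of exon (linear axis from 0), grouped and coloured by role, and error bars the SD. Psme1 stood highest at 84.6, and the inducible Psmb8 at 25.5, Psmb9 at 28.5 and Psmb10 at 22.4 had wide error bars next to the 19S ATPases.

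The members varied little over the study. Their CV over all 19 libraries had a median of 10.2%, from 4.78% for the ATPase gene Psmc3 to 27.2% for Psmb8, against a median of 17.4% for the 14495 genes tested and 16.5% for the 11346 genes within the members' range of mean level. Psmb8, Psmg3 at 26.2% and Psmb9 at 23.1% were the most variable. Psmg3 had few reads, down to 10 counts in a Has2+/- saline library, while Psmb8 and Psmb9 were at 20.6 CPM or more in every library.

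The first question was whether chronic OVA changed the proteasome genes in WT lung. In edgeR's quasi-likelihood fit, with the cutoffs the study used (adjusted p below 0.01, fold change beyond 1.2), 1 of the 47 members rose (2.13%) and 0 fell, beside 21.9% of all 14495 genes tested (12% higher and 9.95% lower). The one that rose was Psmd8, a non-ATPase subunit of the cap's lid. The median log2 fold change of the members was 0.01, and the median size of change regardless of sign was 0.08, against 0.22 over all genes tested. At an unadjusted p under 0.05 there were 9 members, beside 43.3% of all genes, and the 95% interval lay within 0.5 log2 units of 0 for 39 of the 47, beside 47.7% of all genes. Groups did not overlap for 0 members in the higher direction, beside 14.1% of all genes, and for 1 member, the alpha subunit Psma6, in the lower direction, beside 13.4%.

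In Has2+/- lung 1 of the 47 members rose on OVA (2.13%) and 0 fell, beside 18.2% of all genes (10.5% higher and 7.72% lower). Here it was Psmb2, a beta subunit without a cutting site. The members' median log2 fold change was 0.05 and the median size of change 0.11, against 0.22 for all genes. At an unadjusted p under 0.05 there were again 9 members, beside 39.7%, and 37 of the 47 intervals lay within 0.5 log2 units of 0, beside 47.0%. Groups did not overlap for 2 members that were higher, Psmb2 and Psmd8, beside 11%, and for 0 that were lower, beside 7.33%.

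**Figure D2:**
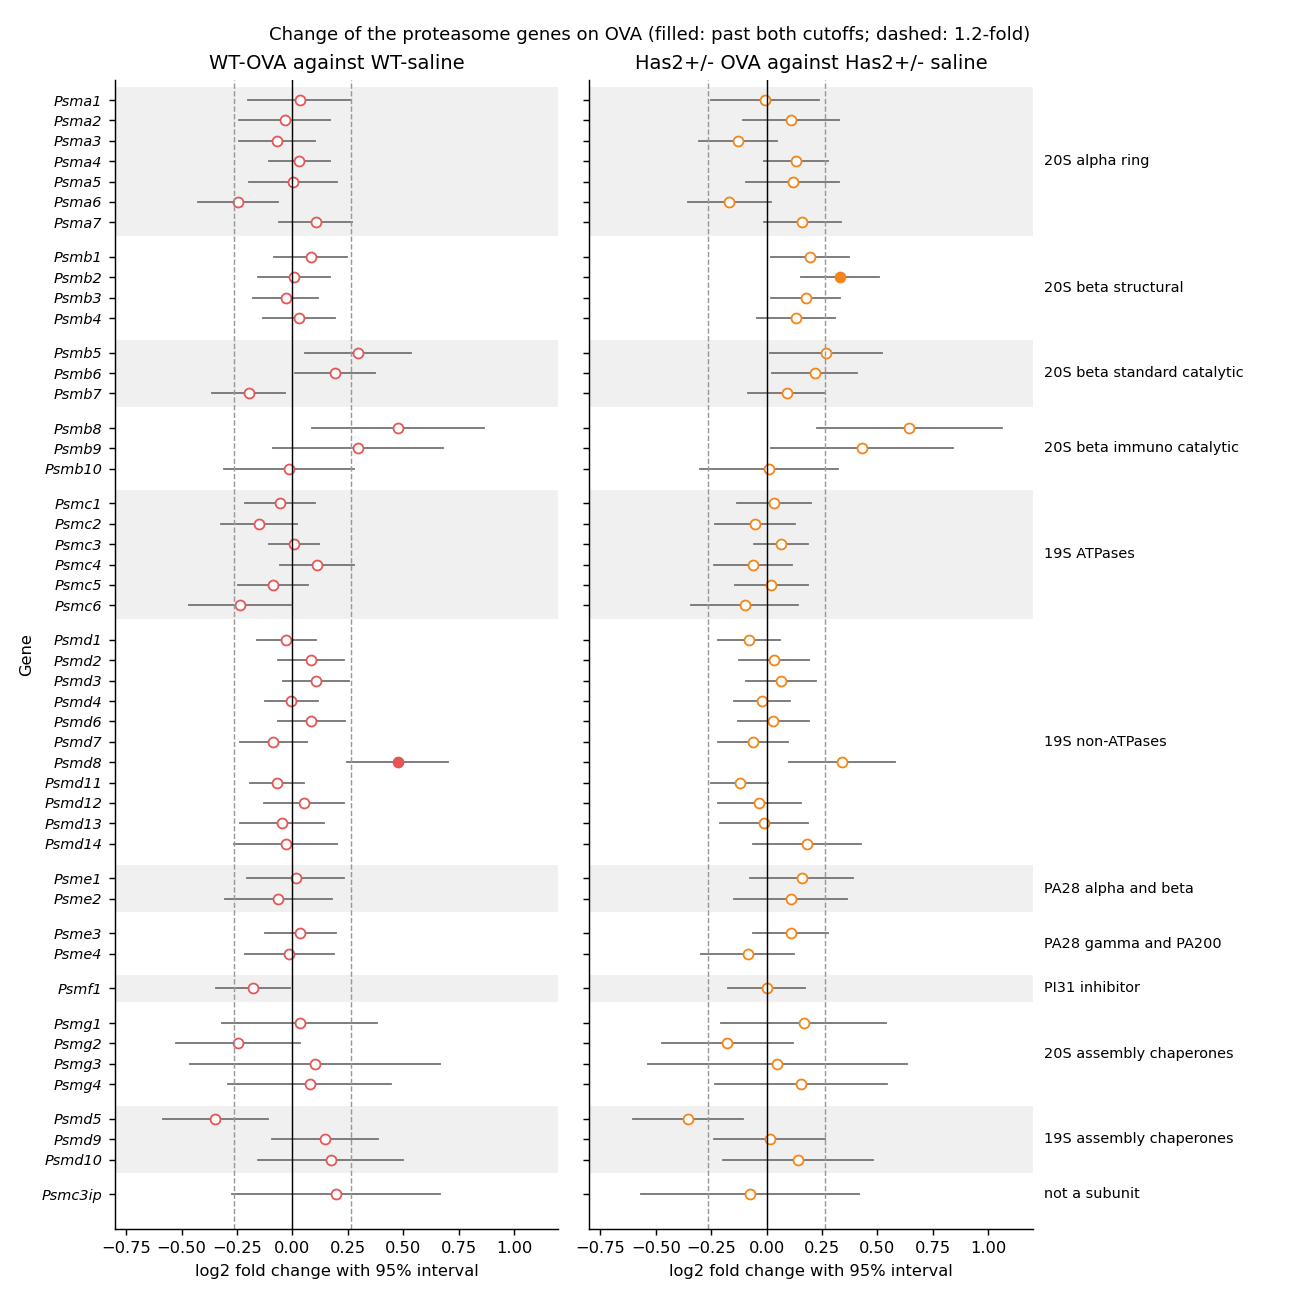
Points give the log2 fold change of each of the 47 genes on OVA in WT lung (left, 5 against 5 libraries) and in Has2+/- lung (right, 5 against 4), lines the 95% interval, filled points the genes past both cutoffs and dashed lines a 1.2-fold change. Psmd8 at 0.47 in WT and Psmb2 at 0.33 in Has2+/- are filled, Psmb8 lies furthest right in both panels (level with Psmd8 in WT), and most other genes lie close to 0.

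2 saline libraries stood apart in the inducible genes, and the log2 fold changes and ratios of these genes on OVA are also given without them. Library 2 (WT-saline) was the highest of its group in 5 of the 5 inducible genes and in 24 of the 47 members, against 22.8% of all genes tested. Library 9 (Has2+/- saline) was the highest of its group in 5 of the 5 inducible genes and in 14 of the 47 members, against 32.2% of all genes. Their summed level of the 5 inducible genes was 332 and 294 CPM, and that of the other 7 saline libraries 175 to 234 CPM. On the first principal component, which held 61.8% of the variance and set all OVA libraries (29.7 to 56.7) apart from all saline libraries, libraries 2 and 9 were at -30.5 and -26.0 and the other 7 saline libraries between -55.8 and -41.4.

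Psmb8 (chr17:34197721-34201454, mm10), which replaces Psmb5 at the chymotrypsin-like site and is encoded in the MHC, showed the highest fold change of the members in both OVA comparisons, in WT level with that of Psmd8 (0.48 and 0.47 on the log2 scale). In the 5 WT-saline libraries it was at 37.6, 64.7, 34.4, 34.5 and 36.2 CPM, and in the 5 WT-OVA libraries at 55.5, 70.3, 50.01, 57.5 and 55.4 CPM. All WT-OVA libraries were thus above 4 of the 5 WT-saline libraries, and library 2 lay inside the OVA range. In the 4 Has2+/- saline libraries it was at 25.7, 25.5, 39.4 and 53.5 CPM, and in the 5 Has2+/- OVA libraries at 49.7, 59.6, 54.3, 62.9 and 52.4 CPM. Here too a single saline library, library 9, overlapped the OVA libraries. The log2 fold change on OVA was 0.48 ± 0.19 (SE) in WT (adjusted p = 0.0545, 95% interval 0.09 to 0.86) and 0.64 ± 0.20 in Has2+/- (adjusted p = 0.0193, interval 0.23 to 1.06), and neither passed the cutoff. DESeq2 gave an adjusted p of 0.0361 in WT and of 0.00848 in Has2+/-, so that only the second passed with that tool.

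Without library 2, Psmb8 passed in WT at a log2 fold change of 0.69 (edgeR adjusted p = 0.00266), and without library 9 it passed in Has2+/- at 0.88 (adjusted p = 0.00125). Through the spread that all groups share, the Has2+/- call also passed without library 2 (0.64, adjusted p = 0.00566). Leaving out both gave 0.70 in WT (adjusted p = 0.000179) and 0.89 in Has2+/- (adjusted p = 5.86e-05). Both libraries were singled out after these values were seen, so the values without them are a description.

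Psmb9 (chr17:34181987-34187764), which replaces Psmb6 at the caspase-like site and adjoins Tap1, had the same libraries, 2 and 9, at the top of the saline groups. In WT-saline it was at 33.4, 56.8, 28.5, 36.8 and 37.0 CPM and in WT-OVA at 48.7, 51.7, 47.1, 45.0 and 44.3 CPM. In Has2+/- saline it was at 28.8, 20.6, 35.4 and 52.4 CPM and in Has2+/- OVA at 40.6, 54.2, 45.0, 42.4 and 47.8 CPM. Each OVA library was above every saline library of its genotype except library 2 or 9. The log2 fold change was 0.30 ± 0.18 (SE, adjusted p = 0.231) in WT and 0.43 ± 0.20 (adjusted p = 0.107) in Has2+/-. Without both libraries it passed, at 0.48 in WT (adjusted p = 0.00505) and 0.70 in Has2+/- (adjusted p = 0.000659). Both had been singled out for high values in the inducible genes, Psmb9 among them, so this too is only a description. Of its 1352 exon bases 212 overlap Tap1 on the other strand, and whether the counting used the strand was not stated, so reads of the 2 genes cannot be told apart there.

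Psmb10 (chr8:105935735-105938444), which replaces Psmb7 at the trypsin-like site and lies outside the MHC, was nearly level between saline and OVA. In WT-saline it was at 27.1, 38.6, 26.9, 24.5 and 29.8 CPM and in WT-OVA at 29.8, 33.8, 28.1, 22.7 and 31.5 CPM. In Has2+/- saline it was at 25.3, 21.2, 30.1 and 36.3 CPM and in Has2+/- OVA at 31.4, 29.2, 23.8, 27.8 and 29.2 CPM. The groups overlapped almost fully, with the highest values again in libraries 2 and 9. The log2 fold change was -0.02 ± 0.14 (SE, 95% interval -0.31 to 0.28) in WT and 0.01 ± 0.15 (interval -0.30 to 0.32) in Has2+/-. The Psmb8 point estimates lay outside these intervals, but the intervals of Psmb8 overlapped them. A difference between Psmb8 and Psmb10 was not tested. Without libraries 2 and 9 it was 0.11 and 0.15, with adjusted p-values of 0.524 and 0.394.

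The activator subunits Psme1 and Psme2, neighbours on chromosome 14, also overlapped between saline and OVA. Psme1 was at 84.5, 116, 96.7, 86.8 and 86.5 CPM in WT-saline and at 103, 106, 86.7, 88.4 and 90.8 CPM in WT-OVA. In Has2+/- it was at 68.5, 71.7, 89.7 and 99.5 CPM in saline and at 101.5, 98.3, 83.7, 86.4 and 88.2 CPM in OVA libraries. Libraries 6 and 7 were the lowest of all 19. Its log2 fold change was 0.02 (95% interval -0.20 to 0.23) in WT and 0.16 (-0.08 to 0.39) in Has2+/-. Without libraries 2 and 9 it was 0.11 (adjusted p = 0.386) and 0.26 (adjusted p = 0.0412).

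Psme2 was at 40.9, 56.4, 38.6, 48.2 and 44.0 CPM in WT-saline and at 47.2, 44.3, 43.9, 40.8 and 42.3 CPM in WT-OVA. In Has2+/- it was at 31.8, 36.3, 37.6 and 51.9 CPM in saline and at 40.1, 48.9, 41.8, 38.9 and 41.7 CPM in OVA libraries. Its highest value came from library 2 and its second highest from library 9. The log2 fold change was -0.06 (95% interval -0.30 to 0.18) in WT and 0.11 (-0.15 to 0.36) in Has2+/-, and the adjusted p was 0.711 and 0.555. Without libraries 2 and 9 the values were 0.029 (adjusted p = 0.824) and 0.27 (adjusted p = 0.0318). The partner activators that interferon-gamma is not known to induce, Psme3 (PA28 gamma, nuclear) and Psme4 (PA200), had log2 fold changes of 0.04 and -0.01 in WT and of 0.11 and -0.09 in Has2+/-, none past the cutoff.

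**Figure D3:**
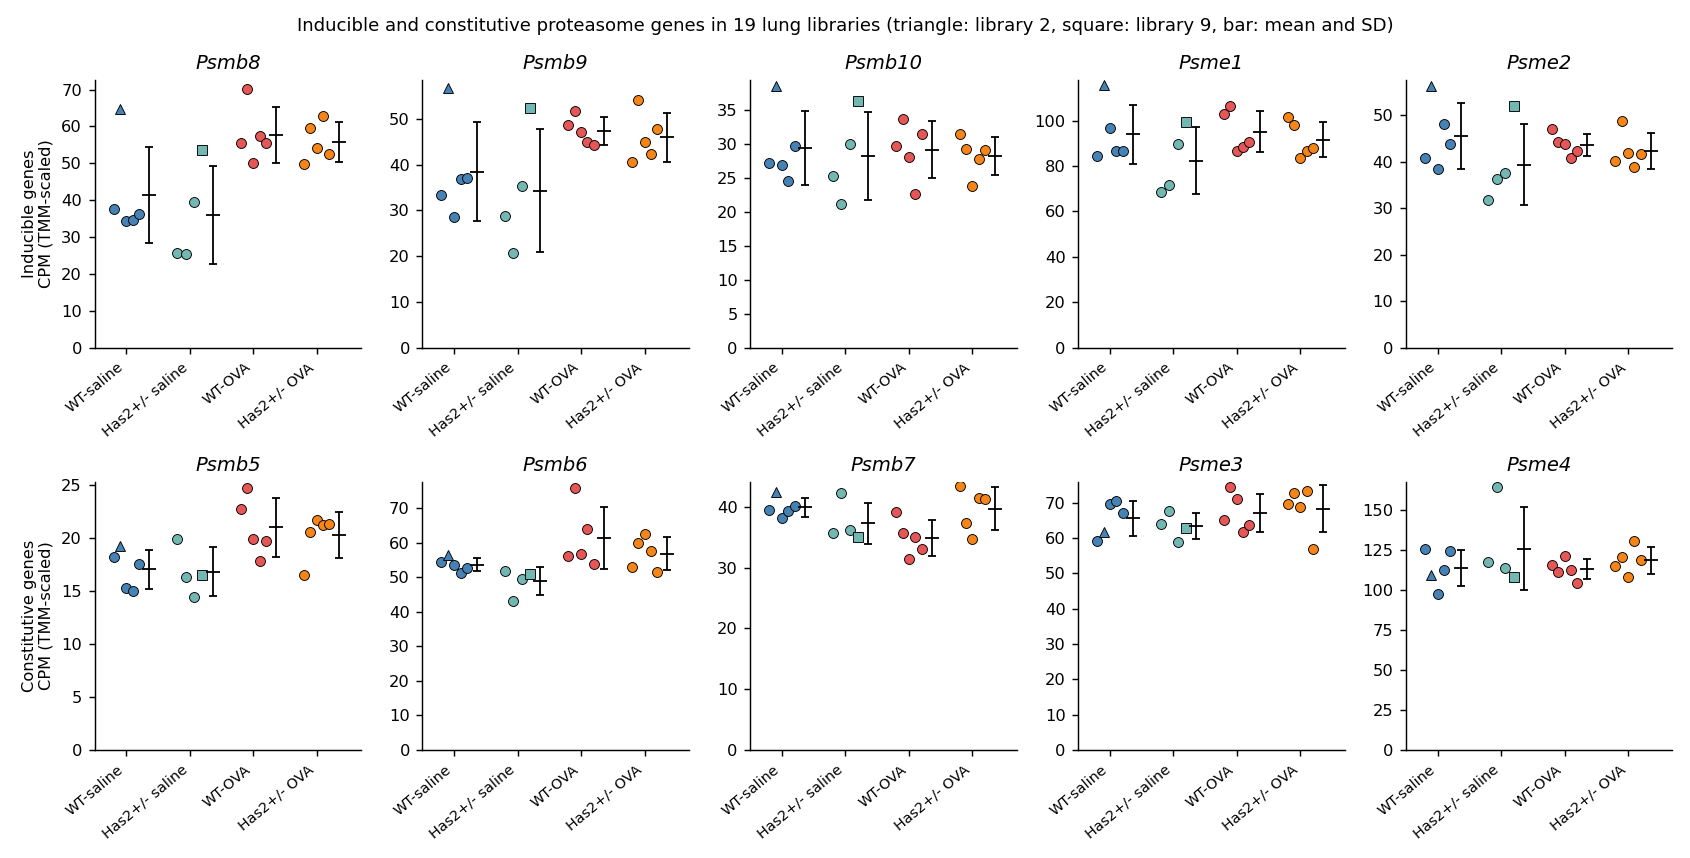
Each point is a library, with TMM-scaled CPM on a linear axis from 0 and the 4 groups along the other axis; the upper row holds the inducible genes, the lower row constitutive ones, and bars give mean and SD. Library 2 (triangle) reached 64.7 CPM for Psmb8 against 34.4 to 37.6 in the other WT-saline libraries, and library 9 (square) 53.5, while for Psmb5 library 2 was at 19.2 against 14.96 to 18.2, and library 9 lay inside its group.

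The standard catalytic subunits did not mirror the inducible ones. Psmb5, the chymotrypsin-like subunit, was at 18.2, 19.2, 15.2, 14.96 and 17.5 CPM in WT-saline and at 22.7, 24.7, 19.9, 17.8 and 19.7 CPM in WT-OVA, and at 19.9, 16.3, 14.4 and 16.5 CPM in Has2+/- saline and 16.5, 20.5, 21.7, 21.2 and 21.3 CPM in Has2+/- OVA. Its log2 fold change was 0.30 ± 0.12 (SE, adjusted p = 0.0523) in WT and 0.27 ± 0.12 (adjusted p = 0.107) in Has2+/-. It thus lay on the same side as Psmb8, not the opposite one, in both genotypes, without passing the cutoff.

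Psmb6, the caspase-like subunit, was between 51.3 and 56.6 CPM in WT-saline, 53.8 and 76.0 in WT-OVA, 43.2 and 51.9 in Has2+/- saline and 51.5 and 62.7 in Has2+/- OVA. Its log2 fold change was 0.19 (adjusted p = 0.0912) and 0.22 (adjusted p = 0.0843). Psmb7, the trypsin-like subunit, was between 38.2 and 42.5 CPM in WT-saline, 31.4 and 39.1 in WT-OVA, 35.0 and 42.3 in Has2+/- saline and 34.7 and 43.5 in Has2+/- OVA, at log2 fold changes of -0.20 (adjusted p = 0.0612) and 0.09 (adjusted p = 0.451). Of the 1160 exon bases of Psmb7, 405 overlap Nek6 on the other strand.

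The ratio of an inducible subunit to the one it replaces does not depend on library scaling, and was computed in each library from the counts, with 0.5 added to each. For Psmb8 to Psmb5 the log2 ratio was 1.05, 1.75, 1.17, 1.199 and 1.05 in WT-saline and 1.28, 1.504, 1.33, 1.69 and 1.49 in WT-OVA libraries. In Has2+/- lung it was 0.37, 0.64, 1.45 and 1.69 in saline and 1.58, 1.53, 1.32, 1.57 and 1.29 in OVA libraries. The spread narrowed from an SD of 0.63 in Has2+/- saline to 0.14 in Has2+/- OVA, and OVA libraries fell inside the saline range. The mean difference on OVA was 0.22 in WT (95% interval from the pooled SD -0.13 to 0.56, exact two-sided permutation p = 0.190, n = 5 and 5) and 0.42 in Has2+/- (-0.26 to 1.10, p = 0.270, n = 5 and 4). Without libraries 2 and 9 the differences were 0.34 and 0.64. Their exact permutation p-values, here adjusted over the 12 ratio tests and unlike the unadjusted ones above, were 0.190 and 0.214. Both libraries had been singled out for high values in the inducible genes, Psmb8 among them, so these values are only a description. In WT all OVA ratios then lay above all saline ratios, since library 2, at 1.75, had been the only WT-saline library not below them. That order gives the smallest unadjusted permutation p of 4 against 5 libraries, 0.0159, which is no evidence of a change. The adjusted value of 0.190 cannot be read as an absence of change either.

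For Psmb9 to Psmb6 the mean log2 ratio was -0.52 ± 0.34 (SD, n = 5) in WT-saline, -0.37 ± 0.16 (n = 5) in WT-OVA, -0.59 ± 0.48 (n = 4) in Has2+/- saline and -0.31 ± 0.17 (n = 5) in Has2+/- OVA. For Psmb10 to Psmb7 it was -0.46 ± 0.20, -0.26 ± 0.24, -0.42 ± 0.44 and -0.49 ± 0.09 in the same order. The OVA differences were 0.15 and 0.28 for the first ratio and 0.19 and -0.06 for the second, and without libraries 2 and 9 they were 0.29 and 0.49 and 0.27 and 0.10. Over the 12 tests of the 3 ratios and 4 comparisons the lowest exact permutation p was 0.103 and the lowest Benjamini-Hochberg adjusted p 0.724. Before adjustment, designs of 5 against 5 and 4 against 5 can reach 0.00794 and 0.0159. A ratio that alone separated its groups fully could therefore not pass an adjusted p of 0.05, so these tests cannot show that a single ratio stayed the same. With Psmb8, Psmb9 and Psmb10 summed over Psmb5, Psmb6 and Psmb7, the log2 ratio ran from -0.25 to 0.44 in WT-saline, -0.60 to 0.47 in Has2+/- saline, 0.10 to 0.30 in WT-OVA and 0.05 to 0.28 in Has2+/- OVA libraries. The highest values of both saline groups, in libraries 2 and 9, exceeded all OVA libraries. Without them the range was -0.25 to -0.10 in WT-saline, no wider than in WT-OVA, and -0.60 to 0.068 in Has2+/- saline.

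**Figure D4:**
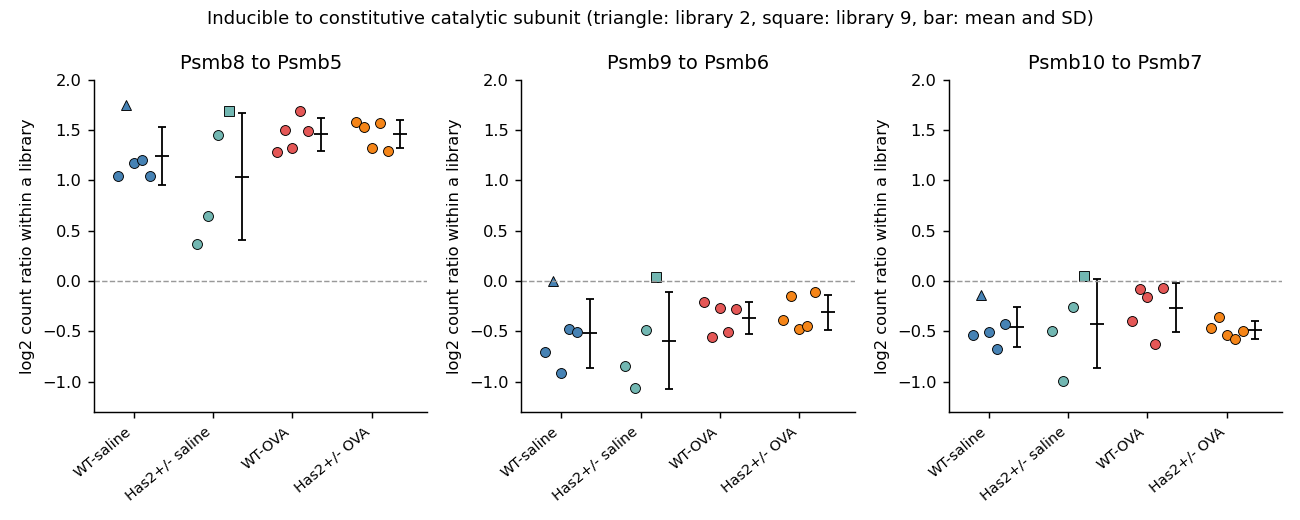
Points give the log2 count ratio of an inducible to a standard catalytic subunit in each of the 19 libraries by group, and bars the mean and SD, with the dashed line at equal counts. For Psmb8 to Psmb5 libraries 2 (triangle, 1.75) and 9 (square, 1.69) sat at or above the OVA libraries, which ran from 1.28 to 1.69.

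Psmd8 (chr7:29174188-29180701), a lid subunit of the 19S cap known in yeast as the last to join the lid, was at 54.6, 66.5, 54.6, 50.9 and 52.8 CPM in WT-saline and at 78.0, 107, 67.0, 73.4 and 63.2 CPM in WT-OVA. In Has2+/- it was at 61.1, 56.7, 61.3 and 58.5 CPM in saline and at 69.4, 72.5, 81.2, 74.2 and 79.1 CPM in OVA libraries. Library 2 was the only saline library inside the OVA range of its genotype. It rose on OVA in WT by a log2 fold change of 0.47 ± 0.11 (SE, 1.39-fold, adjusted p = 0.00195), and the value in Has2+/- was 0.34 ± 0.12 (adjusted p = 0.0298), past the fold but not the p cutoff, which it passed without library 11 (0.00317) or when only the Has2+/- groups were fitted (0.00829). Without library 11, the highest, the WT value was 0.33 and still passed (adjusted p = 0.00415). The other 10 non-ATPases of the cap ranged from -0.09 (Psmd7) to 0.11 (Psmd3) in WT and from -0.12 (Psmd11) to 0.18 (Psmd14) in Has2+/-.

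Psmb2 was at 28.2, 30.0, 27.5, 28.0 and 26.0 CPM in WT-saline, at 25.0, 19.3, 21.4 and 23.3 CPM in Has2+/- saline, at 26.4, 29.1, 28.3, 28.1 and 28.4 CPM in WT-OVA and at 25.2, 29.8, 27.0, 30.0 and 28.2 CPM in Has2+/- OVA. The 4 Has2+/- saline libraries lay below the other 15, with 25.0 against 25.2 CPM as the nearest values, and the remaining groups overlapped. On OVA it rose in Has2+/- by 0.33 ± 0.08 on the log2 scale (SE, 1.26-fold, adjusted p = 0.00521), while in WT the change was 0.01 ± 0.08 (adjusted p = 0.958). The call in Has2+/- was lost with DESeq2 (adjusted p = 0.0112), with no filter on low counts (0.0125), when only both Has2+/- groups were fitted (0.0479) and without library 7, 8, 16 or 18. The difference between the 2 genotypes' changes was 0.32 ± 0.11 (adjusted p = 1.0).

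Psmd5, a chaperone that helps to build the base of the 19S cap, had the lowest fold change of all members in both genotypes. It was at 32.6, 28.6, 34.0, 38.0 and 37.7 CPM in WT-saline and at 28.1, 24.0, 28.5, 28.6 and 25.1 CPM in WT-OVA, with log2 fold change -0.35 ± 0.11 (SE, adjusted p = 0.0225). In Has2+/- it was at 37.2, 36.5, 38.1 and 25.2 CPM in saline and at 25.8, 30.0, 24.0, 30.6 and 23.8 CPM in OVA libraries, with -0.36 ± 0.12 (adjusted p = 0.0278). In both genotypes the lowest saline library was 2 or 9, the same that were highest in Psmb8. Without library 9 Psmd5 passed in both (adjusted p = 0.00663 and 0.00174), and in WT also when only the WT groups were fitted (0.00913). Without both libraries it passed, at -0.40 in WT (adjusted p = 0.00214) and -0.47 in Has2+/- (adjusted p = 0.00124). These values are a description, since both libraries were singled out after the data were seen.

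The remaining groups stayed close to 0. In the alpha ring, which gates the core, log2 fold changes ran from -0.25 (Psma6, adjusted p = 0.0331) to 0.11 (Psma7) in WT and from -0.17 (Psma6) to 0.16 (Psma7) in Has2+/-. The 4 beta subunits without a cutting site ran from -0.03 (Psmb3) to 0.08 (Psmb1) in WT and from 0.13 (Psmb4) to 0.33 (Psmb2) in Has2+/-. The 6 ATPases ran from -0.24 (Psmc6) to 0.11 (Psmc4) in WT and from -0.10 (Psmc6) to 0.06 (Psmc3) in Has2+/-. Psmf1, which encodes the inhibitor PI31, had -0.18 (adjusted p = 0.0956) and -0.00 (adjusted p = 0.997). The 20S chaperones ran from -0.24 (Psmg2) to 0.10 (Psmg3) in WT and from -0.18 (Psmg2) to 0.17 (Psmg1) in Has2+/-, and the other 19S chaperones were at 0.15 and 0.17 (Psmd9 and Psmd10) in WT and 0.01 and 0.14 in Has2+/-. None of these passed the cutoffs except Psmb2 in Has2+/-.

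The comparison of Has2+/- OVA with WT-saline shares the WT-saline libraries with the WT comparison and the OVA libraries with the Has2+/- one. In it 1 of 47 members, Psmd8, rose (log2 fold change 0.43 ± 0.11, adjusted p = 0.0045), beside 20.4% of all genes in either direction. The call was lost on leaving out any 1 of libraries 1, 3, 4, 5, 17 and 19, with adjusted p-values of up to 0.0150. Psmb8 had 0.42 ± 0.19 (adjusted p = 0.0881), Psmb9 0.25 (0.320), Psmb10 -0.06 (0.798), Psme1 -0.04 (0.823) and Psme2 -0.11 (0.504).

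The next question was whether the genotype alone moved the proteasome genes. Between Has2+/- saline and WT-saline 0 of 47 members passed in edgeR and 0 in DESeq2, beside 0.0% of all genes in edgeR, and 3 members had an unadjusted p under 0.05, beside 6.94% of all genes. These were Psmb2 (log2 difference -0.33, adjusted p = 0.448), Psmb4 (-0.22, adjusted p = 0.655) and Psma3 (0.18, adjusted p = 0.707). All 5 inducible genes were on the lower side in Has2+/- saline, from -0.22 (Psme2 and Psmb8) to -0.07 (Psmb10). The 95% interval for Psmb8 ran from -0.64 to 0.20, so that the 4 libraries, which spanned 25.5 to 53.5 CPM, could not show a difference of that size. Without library 2 the Psmb8 difference was 0.00, and without library 9 it was -0.46.

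Between Has2+/- OVA and WT-OVA 0 of 47 members passed in edgeR and 0 in DESeq2, beside 0.0% in edgeR, and 1 had an unadjusted p under 0.05, beside 7.73%. It was Psmb7, at 0.19 ± 0.08 (adjusted p = 0.572). The inducible genes were nearly level, with log2 differences of -0.05 for Psmb8 (95% interval -0.43 to 0.33), -0.04 for Psmb9 (-0.42 to 0.34), -0.04 for Psmb10 (-0.34 to 0.25), -0.05 for Psme1 (-0.27 to 0.17) and -0.05 for Psme2 (-0.29 to 0.19). For 45 of the 47 members the interval lay within 0.5 log2 units of 0. The share of all genes is not given here for this comparison, so the count cannot be read as particular to the members. The test of whether the OVA change differed between genotypes also called 0 members in edgeR and 0 in DESeq2, beside 0.0% of all genes in edgeR. In that test 2 members, Psmb2 and Psmb7 (0.29, adjusted p = 1.0), had an unadjusted p under 0.05, beside 4.1% of all genes, and Psmb8 had 0.17 (95% interval -0.40 to 0.74).

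Genes that work with the proteasome were followed by lists of general knowledge, against all genes tested, of which 12% rose and 9.95% fell in WT and 10.5% rose and 7.72% fell in Has2+/-. In lists of 8 to 14 tested genes, 1 or 2 calls in a direction lie close to those shares. Of 16 proteasome-associated genes, including the ubiquitin receptor Adrm1 (log2 fold change 0.19 in WT), the deubiquitinase Uchl5 (-0.31), the nuclear import factor Akirin2 (-0.14) and the shuttle factor Ubqln4 (0.10), 0 passed in edgeR in either OVA comparison and 1 in WT and 0 in Has2+/- had an unadjusted p under 0.05. DESeq2 called 0 of the 16 in both. Pomp, the chaperone of 20S and immunoproteasome assembly, was at -0.02 in WT and -0.03 in Has2+/-. Of 11 genes of the NRF1 and NRF2 route, which raises proteasome genes when the proteasome is blocked, 1 rose and 3 fell in WT. The one that rose was Syvn1, an ER ubiquitin ligase (1.15, adjusted p = 7.43e-06), and those that fell were Maff (-0.55), Nfe2l3 (-0.60) and Nfe2l2 (-0.29). In Has2+/- Syvn1 rose (0.78, adjusted p = 0.00119) and Nfe2l2 fell (-0.29, adjusted p = 0.00837). Nfe2l1 itself was at -0.06 and -0.10 and Vcp, the ATPase that extracts it from the ER, at 0.25 and 0.26, short of the fold cutoff.

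Of 12 class I peptide loading genes 11 had a positive log2 fold change in WT, with a median of 0.23, and 12 of 12 in Has2+/-, with a median of 0.31, against -0.00 and -0.01 over all genes tested. In edgeR 1 of them passed, H2-D1, a class I heavy chain gene, in WT (0.43, adjusted p = 0.00924). With DESeq2 3 of the 12 passed in WT and 2 in Has2+/-, which is close to the 23.5% and 20.5% of all genes called with that tool. H2-D1 had 0.40 (adjusted p = 0.0229) in Has2+/-. B2m, the class I light chain, had 0.42 in both (adjusted p = 0.0126 and 0.0201), Calr 0.48 and 0.46, and H2-K1 0.33 and 0.40. Tap1, next to Psmb9, had 0.27 (adjusted p = 0.369) and 0.41 (adjusted p = 0.210). Of 14 tested interferon-gamma genes out of 17 listed, 2 rose in each comparison, close to the 12% and 10.5% of all genes that rose. They were the receptor chain Ifngr2 (0.68 and 0.63) and the class II regulator Ciita (0.92 and 0.96), and 8 of the 14 had a negative value in each. Gbp2 was at -0.77 (adjusted p = 0.0151) and Gbp7 at -0.67 (adjusted p = 0.0428) in WT, and -0.20 and -0.14 in Has2+/-. Of 8 ubiquitin genes Ube2l6, the ISG15-conjugating enzyme, fell in WT (-1.01, adjusted p = 4.02e-05), and Rps27a, which encodes a ubiquitin fusion, rose in Has2+/- (0.35, adjusted p = 0.00817). Ubb was at 0.07 and 0.11.

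The libraries that stood apart in Psmb8 did so in these genes and in cell type markers. Library 2 was the highest WT-saline library in 8 of 12 class I loading genes and 11 of 14 interferon-gamma genes, and library 9 the highest Has2+/- saline library in 7 of 12 and 9 of 14. Nlrc5, the activator of class I genes, was at 48.8, 104, 37.4, 63.8 and 71.4 CPM in WT-saline and at 32.1, 33.7, 66.7 and 119.5 CPM in Has2+/- saline. Cxcl9, a chemokine induced by interferon-gamma, was at 29.4 CPM in library 2 and 12.4 CPM in library 9, and between 0.0 and 7.6 CPM in the other 17 libraries. Ifng itself had 1.1 CPM in library 2 and at most 0.6 CPM elsewhere. It was too low to pass the filter on low counts, and these values rest on few reads.

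**Figure D5:**
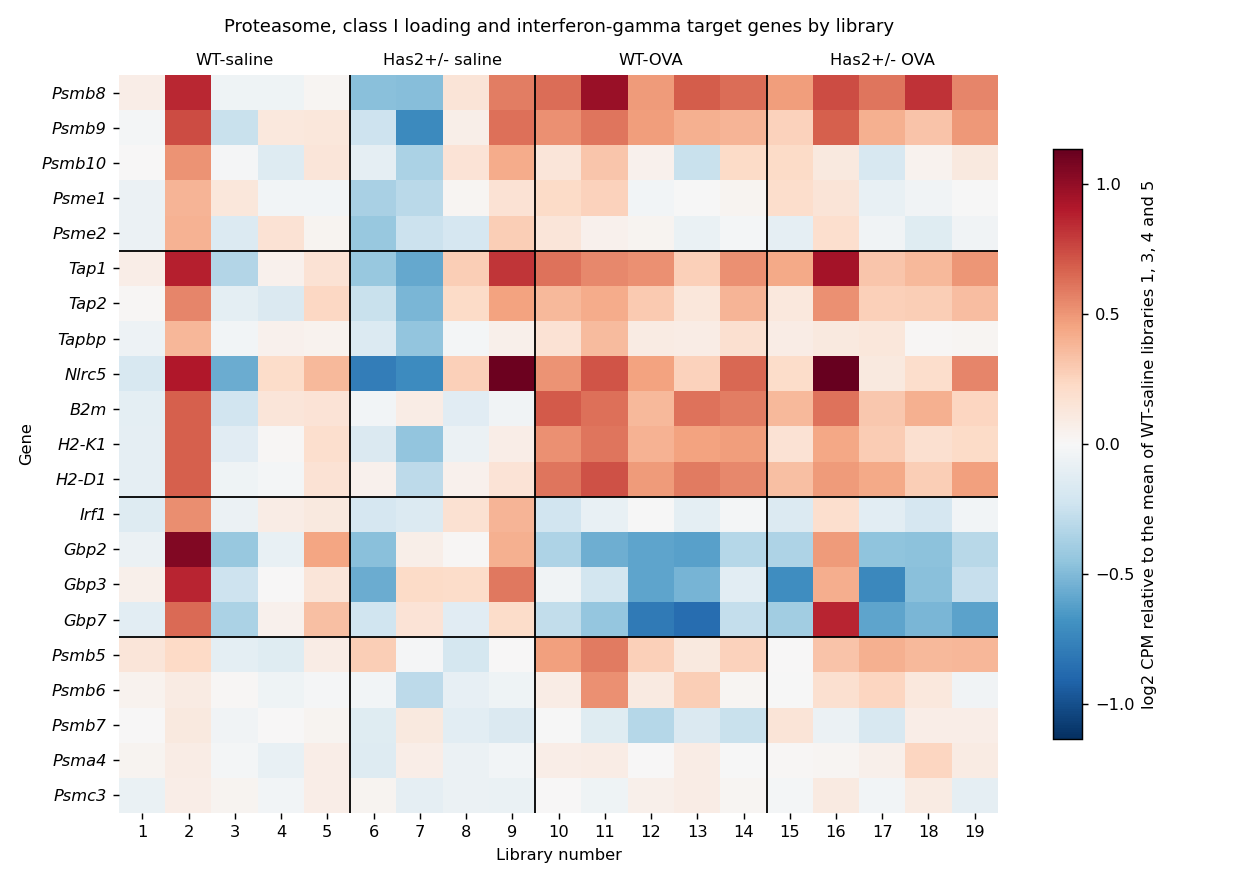
Colours give log2 CPM of each gene in each of the 19 libraries relative to the mean of WT-saline libraries 1, 3, 4 and 5, with the inducible proteasome genes on top, then class I loading genes, interferon-gamma targets and constitutive proteasome genes. Columns 2 and 9 are red in most of the upper 3 blocks, with B2m, Tapbp and H2-K1 close to 0 in column 9 (Tap1 at 0.89 and 0.81, Gbp2 at 1.05 and 0.41), the OVA columns are red for Psmb8, Psmb9 and most loading genes but not for the Gbp genes except in library 16, and the lowest block is pale in the saline columns, while Psmb5 and Psmb6 reached 0.59 and 0.52 in OVA columns.

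Many immune cell genes moved with OVA, not all in 1 direction. In both comparisons 8 of 8 pan-leukocyte genes rose, with a median log2 fold change of 0.86 in WT and 1.06 in Has2+/-, and 0 of them were at 0 in all libraries. Their CPM summed to 836 to 1109 in WT-saline libraries and 1429.5 to 1920 in WT-OVA libraries, and to 647 to 1010.1 and 1501 to 1877 in the saline and OVA libraries of Has2+/- mice. Within WT-saline library 2 had the highest sum (1109 CPM, the others 836 to 944), and within Has2+/- saline library 9 (1010.1 CPM, the others 647 to 991). Of 6 B cell genes 6 rose and of 5 plasma cell genes 5 rose in both comparisons, while 0 of 6 T cell genes passed in edgeR in either and 0 and 1 in DESeq2, at medians of 0.40 and 0.74 and with 2 and 6 at an unadjusted p under 0.05. Of 4 tested NK cell genes 2 fell in WT, the granule genes Gzma (-1.04) and Prf1 (-0.82), which were at 0.13 and -0.03 in Has2+/-. Of 6 dendritic cell genes 2 rose in both and 1, Clec9a, fell in WT, and of 5 neutrophil genes 1 rose in both. Of the monocyte and interstitial macrophage genes Csf1r, Cx3cr1, C1qa, C1qb and C1qc rose in WT, and Cx3cr1 in Has2+/-. Their CPM summed to 475 to 508 in WT-OVA and 356 to 492 in Has2+/- OVA libraries. The eosinophil genes Ccr3, Il5ra and Ear2 rose in both, and Prg2 in WT. Alveolar type 1 genes fell for 4 of 5 in both. Libraries 2 and 9 had 444 and 435 summed CPM of monocyte and interstitial macrophage genes, where the other saline libraries had 243 to 311. The other immune cell lists did not all point the same way in these libraries. Both were the highest of their group in T cell (98.0 and 112 CPM) and plasma cell genes (316 and 311 CPM). Both were the lowest of their group in dendritic cell (124 and 99.1 CPM) and NK cell genes (34.6 and 25.0 CPM). Library 2 was also the lowest WT-saline library in neutrophil genes (76.9 CPM) and the highest in eosinophil genes (39.0 CPM). Library 2 had 805 CPM of alveolar macrophage genes (the other saline libraries 313 to 429.8). Genes of this list moved both ways on OVA, with Chil3 and Mrc1 higher and Car4 lower in both genotypes, and Ear1 lower in WT. This sum is thus no measure of cell number. Library 9 had 19239 CPM of club and goblet cell genes (the others 8252 to 9783), 491 of ciliated cell genes (241 to 311), 1104 of smooth muscle genes (712 to 832) and 3096 of endothelial genes (4015 to 4924). In whole lung, fewer cells of a type and less RNA per cell cannot be told apart, and the part of these cells in the Psmb8 and Psmb9 values was not tested.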

How the data were processed

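Whole-lung RNA was sequenced in 19 libraries as paired reads of 36 bases. The labels name a directional kit with ribosomal RNA depletion and the series text a stranded mRNA kit, and the use of strand in counting was not stated. Per the study methods the authors aligned the reads on mm10 in CLC Genomics Workbench 10.1.1, and the deposited values used here are whole-number counts per gene. Another 38 per-library columns and the authors' columns of fold changes and p-values were not used. Column names gave the group of a library, not the animal.

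Counts were tested with edgeR 4.0.16 (quasi-likelihood, TMM scaling, filter of 10 counts a library and 15 in all, 14495 genes, 1 fit over all 4 groups) in R 4.3.3, with Benjamini-Hochberg adjustment over all genes tested. Calls needed an adjusted p below 0.01 together with a fold beyond 1.2, the cutoffs of the study. DESeq2 1.42.0 was an alternative, as were other scaling, filters, fitting only the groups compared, other cutoffs and leaving out each library. Ratios were tested by exact two-sided permutation of libraries (scipy 1.17.1), their intervals coming from the pooled SD. The scripts were tested on simulated data. Gene positions and exon lengths came from GENCODE M21, promoters from RefSeq.

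Always named were the inducible subunits and activators and their standard counterparts. In OVA comparisons the called members and the highest and lowest member of each group were added, in the other comparisons the called members or the 3 of smallest p, and in each related list the 4 of smallest p in WT. Values for Pomp, Nfe2l1, Nfe2l3, Tap1, Nlrc5, Cxcl9 and Ifng, and the libraries left out together, were chosen after the values were seen. Values of 2 genes of the related lists are not reported here. The members and lists were chosen with earlier results of these data known.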

Additional observations from a re-analysis of the deposited data

Results flagged for a closer look

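Over 68 groups of 4 or 5 libraries, 9 held a library far from the rest of its group by Dixon's criterion, which chance alone meets in about 1 group in 20. The groups share libraries and genes, so the flags are not independent and their number cannot be judged against that rate. Those of library 2 in Psmb8 and in both ratios below all draw on its Psmb8 counts. In WT-saline, library 2 was high in Psmb8, at 64.7 CPM with the others at 34.4 to 37.6, and in Psmd8, at 66.5 CPM with the others at 50.9 to 54.6. The same library was high in the log2 ratio of Psmb8 to Psmb5, at 1.75 with the others at 1.05 to 1.199, and in the log2 ratio of summed inducible to summed standard catalytic subunits, at 0.44 with the others at -0.25 to -0.10. In Has2+/- saline, library 9 was low in Psmd5, at 25.2 CPM with the others at 36.5 to 38.1. Library 7 of that group was high in Psmb7, at 42.3 CPM with the others at 35.0 to 36.1, and in Psme4, at 164 CPM with the others at 108 to 118. In Has2+/- OVA, library 15 was low in Psmb5, at 16.5 CPM with the others at 20.5 to 21.7, and library 19 was low in Psme3, at 56.9 CPM with the others at 68.8 to 73.3. The causes were not tested.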

How the results depend on the processing

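No paired analysis was possible because the columns carry no replicate number. The members called on OVA numbered 1 in WT, 1 in Has2+/- and 1 in Has2+/- OVA against WT-saline. Without libraries 2 and 9, left out together after the data were seen, they numbered 4, 4 and 4, and at an adjusted p below 0.05 they numbered 2, 4 and 2. Fitting only the groups compared gave 2 in WT, beside 25.1% of all genes, and no filter on low counts gave 0 in Has2+/-, beside 11.1%. With DESeq2 the single call in Has2+/- was Psmb8 in place of Psmb2. Leaving out single libraries gave 1 to 2 in WT, 0 to 4 in Has2+/- and 0 to 2 in Has2+/- OVA against WT-saline. The 4 in Has2+/- came without library 9, beside 22.3% of all genes. In the genotype comparisons and the interaction 0 members were called under every alternative run. Over all genes tested, Has2+/- OVA against Has2+/- saline had 2643 calls, and 1559 when only its groups were fitted. Where edgeR called 0 genes between genotypes, DESeq2 called 1 in saline and 8 in OVA.

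Among single genes, 29 of the alternative values changed sign, 20 newly passed and 13 no longer passed, and 1231 did neither. Without libraries 2 and 9, Psmb10 and Psme2 in WT on OVA were 0.11 and 0.029, and the ratio of Psmb10 to Psmb7 was 0.10 in Has2+/- on OVA and -0.047 between saline genotypes. With the 7 alpha subunits as denominator, the difference between OVA genotypes was -0.10 for Psmb8 and -0.10 for Psmb9, and that between saline genotypes -0.080 for Psmb10. On leaving out single libraries, log2 fold changes in WT ran from -0.074 to 0.10 for Psmb10, -0.028 to 0.10 for Psme1, -0.11 to 0.026 for Psme2, -0.0040 to 0.068 for Psme3, -0.057 to 0.026 for Psme4 and -0.014 to 0.034 for Psmb2. In Has2+/- they ran from -0.10 to 0.15 for Psmb10 and -0.15 to 0.067 for Psme4. Between saline genotypes they ran from -0.46 to 0.0014 for Psmb8, -0.44 to 0.0049 for Psmb9 and -0.20 to 0.051 for Psmb10, and between OVA genotypes from -0.10 to 0.030 for Psmb8 and -0.12 to 0.016 for Psmb10. Differences in log2 ratio between saline genotypes ran from -0.42 to 0.018 for Psmb8 to Psmb5, -0.28 to 0.087 for Psmb9 to Psmb6 and -0.13 to 0.22 for Psmb10 to Psmb7. For Psmb10 to Psmb7 in Has2+/- on OVA they ran from -0.25 to 0.10, and for Psmb8 to Psmb5 between OVA genotypes from -0.043 to 0.059. The causes were not tested.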
